A study of Mus musculus with 10 samples.

Results

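Among 65779 kept cells of the E16.5 cortex, from 10 mouse embryos, 148 carried markers of the cells that wrap blood vessels or build the meninges. A cell was chosen if at least 3 of Rgs5, Pdgfrb, Kcnj8, Col1a1, Col1a2 and Lum were detected, and fewer than 3 of the 7 endothelial genes Cldn5, Pecam1, Cdh5, Flt1, Kdr, Esam and Ly6c1. Kept cells had at least 1000 unique molecular identifiers (UMIs, each standing for 1 captured transcript) and at most 10% mitochondrial UMIs. In 136 of the 148 cells, the UMIs of Rgs5 and Kcnj8 outnumbered those of Col1a1 and Lum (mural cells), and in 12 the reverse held (fibroblasts). Cells were thus chosen by the UMIs of these 13 genes, so their values are given as a description only. Any comparison of these cells with other cells is likewise a description, whereas the genotype took no part in the choice.

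The embryos were 3 wild types (WT), 4 heterozygotes with a single Gatad2b stop allele (Het) and 3 homozygotes (KO), with 1 library per embryo. The stop allele is Gatad2b tm1a(EUCOMM)Hmgu on a C57BL/6N-Atm1Brd background, a gene trap in the intron between the first and the second coding exon, carried by every cell of the animal. Later exons are retained, so 3′ UMIs of Gatad2b need not vanish. The labels name the tissue as cortex, dissociated with papain, and describe no sort of cells and no dissection of the meninges. Total UMIs of the kept cells per embryo ranged from 82872641 to 123737385. The leading part of the library names in the deposited files splits the embryos into WT 1 to 3 with Het 4, and Het 1 to 3 with KO 1 to 3. All WT embryos are thus of the first prefix and all KO embryos of the second, and only Het has both.

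Mural cells are the pericytes of capillaries and the smooth muscle cells of larger vessels. They are recruited by platelet-derived growth factor B from the endothelium, which acts on their receptor Pdgfrb, and they share a basement membrane with the endothelial tube. Meningeal fibroblasts form the pia, arachnoid and dura that cover the brain, lay down fibrillar collagen, and send retinoic acid, bone morphogenetic proteins and Cxcl12 to the cortex below. In the forebrain both populations descend largely from the neural crest.

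The labels were first checked with genes that took no part in the choice. Per 10000 UMIs, 14 other pericyte genes together gave a median of 104 UMIs in 130 of the 136 mural cells, with a lowest value of 23.3. The other 6 mural cells, from WT 2, WT 3, Het 1 and Het 3, gave at most 1.22, with 1 to 5 UMIs of Rgs5 each. In 5 of these 6 cells Fabp7, a radial glia gene, reached 160 to 2247 UMIs, against at most 21 in the other 130. The 6 cells held 14.7% of all mural UMIs, but unevenly between embryos. The cell of Het 1 held 172239 of the 375279 mural UMIs of that embryo, and that of Het 3 held 31482 of 168011. The cells of WT 2 held 18004 and 35870 of 221832 UMIs, and those of WT 3 held 32833 and 10214 of 229147. No such cell came from a KO embryo, so in the tests they weigh on the WT and Het sums only. Among the fibroblasts, 15 other fibroblast genes gave a median of 76.1 UMIs per 10000 in 10 cells and at least 39.0 in each. The other 2 cells, from WT 1 and WT 2, gave at most 1.18, with 176 and 948 UMIs of Fabp7. The data thus go against the label in 8 of the 148 cells. Levels below are given over the 130 mural cells and 10 fibroblasts that carry the independent genes, a restriction chosen after the values were seen. Shares, tests and the levels of single genes in the comparison of genotypes use all cells of the rule unless stated.

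**Figure D1:**
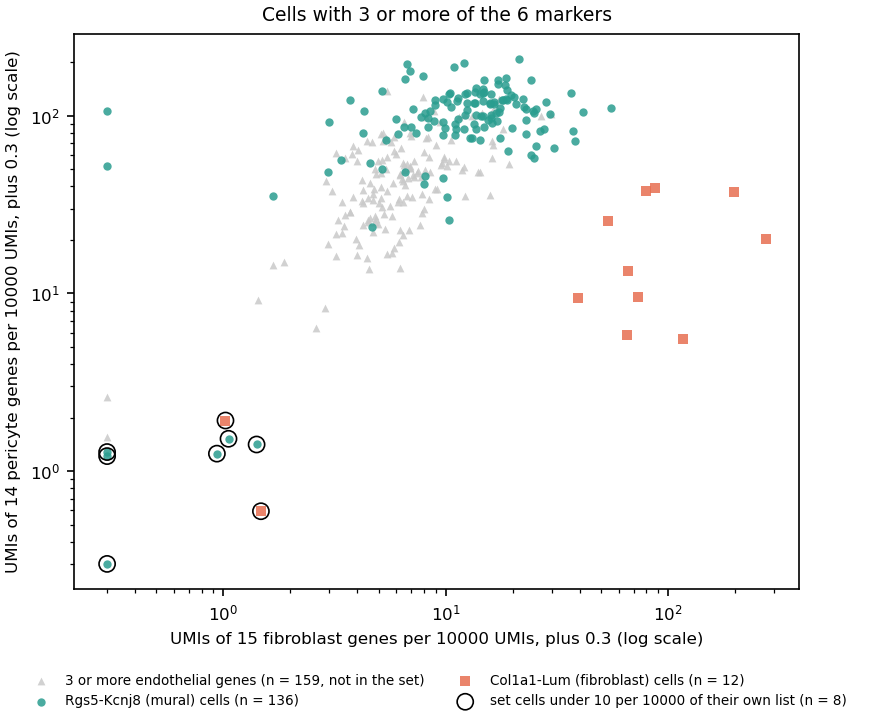
Each point is a cell with at least 3 of the 6 markers, placed by its UMIs of 15 fibroblast genes (x axis) and of 14 pericyte genes (y axis), both per 10000 UMIs plus 0.3 on log scales, with grey triangles for the 159 cells left out for their endothelial genes. Mural cells fill the upper part of the plot and 10 fibroblasts the right, while the 8 circled cells lie below 10 per 10000 on the list of their own type.

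Just inside the rule, 39 cells with exactly 3 markers had a median of 93.3 UMIs of pericyte genes per 10000. Just outside it, the median of 147 cells with 2 markers was 0.612. A further 159 cells had the markers and at least 3 endothelial genes, and so were left out. Their median was 50707 UMIs, against 12091 in the 130 mural cells, and 118 of them had all 7 endothelial genes. The 13 of them with exactly 3 endothelial genes had a median of 99.3 UMIs of pericyte genes per 10000 and 1.73 of the endothelial genes outside the rule, beside 98.8 and 3.15 in the 50 chosen cells with exactly 2 endothelial genes. Scrublet scores likely doublets, and the top scores of each embryo were marked, at 0.8% per 1000 kept cells. This marked 4.12% of the kept cells of KO 2 to 6.48% of those of WT 1, whereas Scrublet's own threshold passed 0 to 1.64% per embryo. The mark fell on 22 of the 136 mural cells, all 11 of Het 4 among them, and 8 of the 12 fibroblasts, all 4 of Het 2 among them. Of the chosen barcodes, 1 also occurred among the kept cells of another library and 0 in the chosen cells of another library.

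The mural cells were led by Rgs5, a brake on G-protein signalling, which reached 6647 ± 1676 CPM (UMIs scaled to the same total in each embryo, mean ± SD over n = 10 embryos). Across embryos it ranged from 4037 to 9330 CPM with a median of 6835. Kcnj8, a subunit of ATP-sensitive potassium channels, averaged 1197 ± 175 CPM and Pdgfrb 886 ± 161 CPM, and all 3 genes were found in each of the 130 cells. UMIs count 3′ ends, so levels are compared between genes without a correction for length.

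Of the 14 pericyte genes that the rule did not use, 13 were higher in mural cells than in the remaining 65225 cells in all 10 embryos, against 24.5% of 4489 genes with at least 50 CPM in either. In comparisons of cell groups, here and below, shares of all genes count genes with at least 50 CPM, whereas lists are counted whole. All 14 pericyte genes reached 50 CPM in mural cells, but not all genes of other lists did. Likewise 13 were higher than in the 247 endothelial cells in every embryo, against 14.7% of 4083 genes. In both comparisons the exception was Atp13a5, a pericyte transporter, which was at 0 in 1 embryo. These endothelial cells had at least 3 of the 7 endothelial genes and fewer than 3 of the 6 markers, so they were chosen for few mural transcripts. In them erythroid genes summed to a median of 24450 CPM (up to 190287 in an embryo) and neuronal genes to 1302 CPM (up to 6425). Only some of the 14 pericyte genes are given below with their level in mural cells. The most abundant pericyte gene was Vtn, the matrix protein vitronectin, with a range of 1691 to 3639 CPM, a median of 2504 CPM, and UMIs in 128 of the 130 cells. In endothelial cells Vtn averaged 9.83 ± 11.4 CPM. Higd1b, a hypoxia-inducible gene, ranged from 1221 to 3194 CPM with a median of 2122 CPM. Abcc9, which pairs with Kcnj8 in the potassium channel, averaged 1214 ± 238 CPM, close to the level of its partner. Ndufa4l2, a mitochondrial protein, averaged 1174 ± 266 CPM. Cspg4, the NG2 proteoglycan of pericytes, averaged 390 ± 72.3 CPM, and Notch3, the receptor through which endothelium instructs mural cells, 294 ± 58.5 CPM.

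The contractile genes of smooth muscle were unevenly present. Myl9, a myosin light chain, was found in 119 of the 130 cells, with a range of 564 to 1299 CPM and a median of 846 CPM. Mylk, the kinase that acts on myosin light chains, averaged 413 ± 62.9 CPM and Tpm2, a tropomyosin, 178 ± 86.5 CPM. By contrast Acta2, smooth muscle actin, was found in 9 cells, or 6.92% of the mural cells, against 0.185% of 37306 Neurod6-positive neurons with a median of 18505 UMIs. Tagln was found in 14 cells and Myh11, the smooth muscle myosin heavy chain, in 2. Cnn1 had 0 UMIs, where 3 UMIs would be 1.72 CPM. Of the 11 smooth muscle genes, 4 were above the remaining cells in all 10 embryos. The 24.5% of all genes counts genes with at least 50 CPM in either group, and 6 of the 11 reached that in mural cells. The shares are thus not alike. Only 3 cells had 10 or more UMIs of Acta2, with 69 in a cell of KO 1, 40 in WT 3 and 26 in WT 1. These cells also had 37, 16 and 4 UMIs of Tagln, and 202, 96 and 79 UMIs of Rgs5. The mural cells thus carried Myl9 and Mylk widely, whereas Acta2, Tagln and Myh11 were found in few of them.

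The promoters of 3 of these genes are shown because their levels span this contrast, from Rgs5 in every mural cell and Myl9 in most to Acta2 in few. Each runs from 250 bases before to 50 after the start of transcription, from RefSeq on GRCm38.p6: Rgs5 at chr1:169655251-169655550 on the + strand, Myl9 at chr2:156775214-156775513 on the + strand, and Acta2 at chr19:34255324-34255623 on the − strand. Capitals mark the CArG box, the site of serum response factor, searched on both strands in its strict form with no mismatch.
Rgs5: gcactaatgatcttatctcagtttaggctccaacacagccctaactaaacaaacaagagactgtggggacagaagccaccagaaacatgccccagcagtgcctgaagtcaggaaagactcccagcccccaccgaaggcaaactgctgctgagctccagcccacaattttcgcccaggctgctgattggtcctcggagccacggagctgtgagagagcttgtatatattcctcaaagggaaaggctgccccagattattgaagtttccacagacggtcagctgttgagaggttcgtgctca
Myl9: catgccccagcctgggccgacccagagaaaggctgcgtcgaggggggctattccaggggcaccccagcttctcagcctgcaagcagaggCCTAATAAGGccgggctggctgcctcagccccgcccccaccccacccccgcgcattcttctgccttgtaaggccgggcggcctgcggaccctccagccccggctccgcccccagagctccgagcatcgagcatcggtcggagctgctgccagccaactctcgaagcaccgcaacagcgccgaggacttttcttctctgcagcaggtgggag
Acta2: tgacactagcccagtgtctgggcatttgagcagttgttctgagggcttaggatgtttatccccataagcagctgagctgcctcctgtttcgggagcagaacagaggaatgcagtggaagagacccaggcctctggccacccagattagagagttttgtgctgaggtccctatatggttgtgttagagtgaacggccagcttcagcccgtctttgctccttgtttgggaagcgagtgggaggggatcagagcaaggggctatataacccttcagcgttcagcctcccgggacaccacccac
The box of Myl9 starts at position -161 from the start of transcription. A strict CArG box was found in 1 of 9 smooth muscle genes with a promoter in the table (Myl9), in 0 of 10 pericyte genes, in 1 of 8 genes of ion channels and cyclic GMP signalling (Trpc6), in 1 of 10 basement membrane genes (Lama2), in 0 of 10 fibroblast genes and in 0 of 8 immediate early and stress genes. Among all 32851 promoters of the table it was found in 1.63%. This share counts promoters, whereas a listed gene counts if any of its promoters has the box, so the 2 are not alike. With 1 mismatch allowed, a form searched after the data were seen and left in lower case, the window of Acta2 held 2 boxes, that of Myl9 2 with the strict one, and that of Rgs5 0, while 21.1% of all promoters held at least 1. A match is no proof of binding, and its absence says only that these letters are not in this window.

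Of 11 genes of ion channels and cyclic GMP signalling, 7 were above the remaining cells in all 10 embryos, against 24.5% of all genes. Gucy1a1, a subunit of the nitric oxide receptor guanylate cyclase, averaged 867 ± 85.9 CPM with UMIs in 124 cells. Gucy1b1, its partner subunit, averaged 484 ± 76.6 CPM. Of 10 receptors, 5 were above the remaining cells in all 10 embryos, against 24.5% of all genes. Ednra, for endothelin, averaged 522 ± 84.7 CPM and S1pr3, for sphingosine-1-phosphate, 305 ± 70.2 CPM, against 3.15 and 1.68 CPM in endothelial cells. Tgfbr2, a receptor for transforming growth factor beta, was lower than in endothelial cells in every embryo, Ednrb and Agtr1a were found in 1 and 4 of the 130 cells, and Ptger3 had 0 UMIs. Of 14 secreted signals 2 were above the remaining cells in all 10 embryos (Bmp5 and Jag1) and 2 above endothelial cells (Bmp5 and Pdgfa), against 24.5% and 14.7% of all genes. Jag1, a Notch ligand, averaged 83.7 ± 27.6 CPM and Pdgfa 64.2 ± 36.3 CPM. Other ligands were near 0 in mural cells: Pdgfb averaged 222 ± 64.8 CPM in endothelial cells and 2.39 ± 4.03 CPM in mural cells, and Edn1, endothelin 1, 39.6 ± 34.3 CPM in endothelial cells with 0 UMIs in mural cells. Mmp9, a matrix protease, ranged from 536 to 2207 CPM with a median of 941 CPM. It was found in 114 of the 130 mural cells and averaged 4.72 CPM in endothelial cells.

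Mural cells also carried the genes of the vascular basement membrane. Of 15 such genes, 13 were above the remaining cells in all 10 embryos, against 24.5% of all genes, and 9 above endothelial cells, against 14.7%. Col4a1 and Col4a2, the main chains of type IV collagen, averaged 3944 ± 501 and 1779 ± 178 CPM, against 1408 ± 408 and 917 ± 256 CPM in endothelial cells. Nid1, a linker of the network, averaged 1081 ± 183 CPM in mural and 284 ± 96.8 CPM in endothelial cells. Hspg2 (perlecan) was lower than in endothelial cells in every embryo, with 59.9 ± 27.9 against 153 ± 63.3 CPM, and Sparc, a collagen-binding protein, was lower in 9 of 10 embryos. Bgn, the proteoglycan biglycan, averaged 942 ± 119 CPM. It was the 1 of 8 small leucine-rich proteoglycans above the remaining cells in all 10 embryos, where 2 of the 8 reached 50 CPM, against 24.5% of all genes with at least 50 CPM. Its relative Aspn ranged from 0 to 178 CPM with UMIs in 52 of the 130 cells, and Ogn from 0 to 93.1 CPM in 16 cells, while Dcn, Fmod, Kera and Lum had 0 UMIs in them. The transcription factors Ebf1, Zic1, Tbx2 and Foxd1 averaged 707 ± 93.9, 485 ± 74.8, 257 ± 44.5 and 239 ± 48.4 CPM, and 13 of 20 such genes of mesenchyme and mural cells were above the remaining cells in all 10 embryos, against 24.5% of all genes.

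Markers of other cell types were then counted. Of 7 endothelial genes outside the rule, 5 were lower than in endothelial cells in every embryo, against 10.0% of 4083 genes. The exceptions were Slco1a4, near 0 in both, and Emcn, an endothelial sialomucin, with 188 CPM in mural and 219 CPM in endothelial cells. Esam, an adhesion molecule of the rule, was found in 98 of the 130 mural cells at 178 ± 32.3 CPM, while Pecam1, Cdh5 and Ly6c1 had 0 UMIs. Over 8 genes of microglia and macrophages 0 to 35.7 CPM were found in an embryo, over 6 erythroid genes 7.32 to 173 CPM, and over 6 genes of the Schwann and pigment lineage 0 to 5.22 CPM. Choroid plexus genes gave at most 82.8 CPM and genes of bone and cartilage at most 47.6 CPM. The sum of 10 neuronal genes was higher, at 125.8 to 3245 CPM, and 16 of the 130 cells had 20 or more UMIs of these genes per 10000. The sum of 8 radial glia genes ranged from 466 to 852 CPM. At least 20 UMIs of 12 cell cycle genes were found in 15 of the 130 cells, 5 of them among the 11 cells of Het 4.

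**Figure D2:**
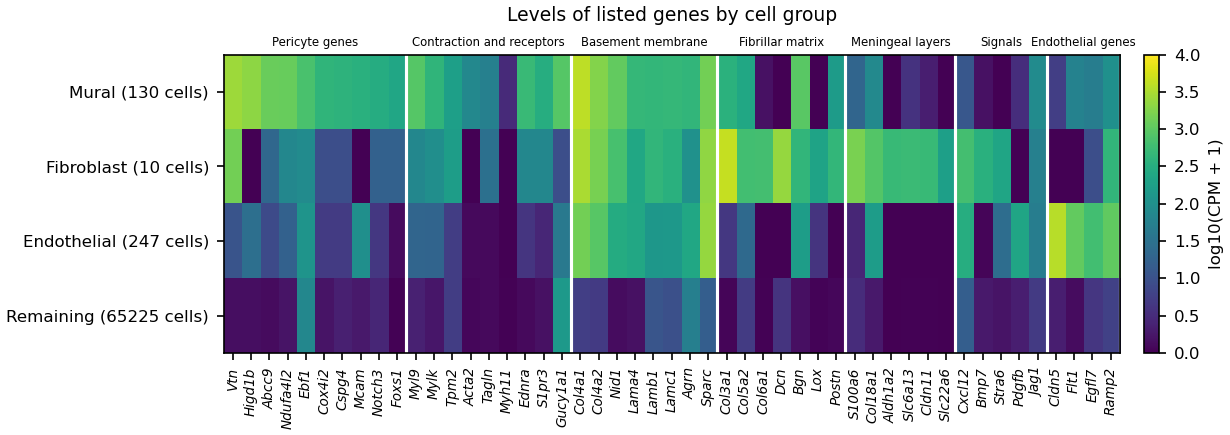
Colours give log10(CPM + 1) of listed genes (x axis) in mural cells, fibroblasts, endothelial cells and the remaining cells (y axis), as the mean over 10 embryos except for fibroblasts, which were pooled. Myl9 is bright and Acta2, Tagln and Myh11 dim in mural cells, and Dcn, Aldh1a2, Slc6a13 and Cldn11 stand out in the fibroblasts.

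The fibroblasts were too few for a test, so their UMIs were pooled over 10 cells of 6 embryos, with exact Poisson 95% intervals that cover counting error only and not the spread between cells or embryos. Of 113 listed genes with at least 50 CPM in the pool, 33 were lower by over 1.5 times when 1 embryo was left out, 12 of them without the single cell of KO 3. Col3a1, the type III collagen chain, led with 4419 CPM (4157 to 4692), followed by Col1a2 with 3573 CPM (3339 to 3820) and Col1a1 with 3208 CPM (2986 to 3443). Without KO 3, Col1a2 was at 2037 CPM and Col1a1 at 1877 CPM. Dcn, the proteoglycan decorin, reached 2354 CPM (2165 to 2556) and was found in all 10 cells. Lum was found in 8 of the 10 cells, against 0.625% of the neurons. All 15 fibroblast genes were higher than in the pooled mural cells of the same embryos, against 45.4% of 4165 genes, and 4 of the 15 were higher in all 6 embryos (Col3a1, Col5a2, Col6a2 and Dcn), against 2.81%. Conversely 10 of the 14 pericyte genes were higher in mural cells in all 6 embryos, against 11.8%. Vtn did not separate the groups as cleanly, with 1418 CPM (1271 to 1576) in fibroblasts and 2264 CPM in the mural cells of the same embryos, and without KO 3 it was at 885 CPM in fibroblasts. The genes with the largest difference, among those higher in every embryo, were Dcn, Gja1, Slc1a3, Islr, Cldn11, Cxcl12, S100a10, Vamp5, Col3a1 and Lpar1 in fibroblasts. In mural cells they were Higd1b, Mmp9, Gucy1a1, Abcc9, Rapgef5, Uchl1, Rgs4, Mef2c, Mcam and Pdzd2. Uchl1 and Mef2c are also abundant in neurons, and averaged 904 and 860 CPM in the remaining cells.

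Genes of the meningeal layers and their signals were next compared. Aldh1a2, which makes retinoic acid, reached 502 CPM (416 to 599) in 6 of the 10 cells and had 0 UMIs in the mural cells, and without the cell of Het 1 it was at 285 CPM. Stra6, the retinol uptake receptor, reached 224 CPM (168 to 292), or 96.0 CPM without KO 3, with 0 UMIs in mural cells. In all, 10 of 12 retinoic acid genes were higher in the pooled fibroblasts, against 45.4% of all genes. The transporter Slc6a13 was found in 8 cells at 531 CPM (443 to 631), Slc22a6 in 7 cells at 182 CPM (133 to 245) and Cldn11, a tight junction protein of the arachnoid, in 8 cells at 489 CPM (405 to 586). Each of the 10 cells had Aldh1a2, Slc6a13 or Cldn11. S100a6, an inner meningeal gene, reached 1554 CPM (1401 to 1720) in 8 cells, or 789 CPM without KO 3, and Col18a1, of the pial basement membrane, 854 CPM (741 to 979). Of 6 dural genes, 3 were higher in the pooled fibroblasts, with Crabp2 at 49.7 CPM (25.7 to 86.9) and Dkk2 at 0 UMIs. The 45.4% of all genes counts genes with at least 50 CPM, which 2 of the 6 reached in fibroblasts and 3 in mural cells. The shares are thus not alike. Cxcl12, the chemokine that guides migrating neurons, reached 626 CPM (530 to 734), or 413 CPM without Het 2, against 9.23 CPM in mural cells. Bmp7 reached 348 CPM (278 to 431) with 0 UMIs in those mural cells, and Bmp6 124 CPM (83.9 to 178) with 0. Cdh5, an endothelial cadherin of the rule, was found in 6 of the 10 fibroblasts, 0 of the 130 mural cells and 0.131% of the neurons.

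The 10 fibroblasts were not alike. The cell of KO 3 had 480 UMIs of Col1a2, 223 of Dcn, 227 of S100a6 and 34 of Aldh1a2 among 53754 UMIs. The 4 cells of Het 2 had 27 to 53 UMIs of Col1a1 each and Slc6a13 in all, while Cldn11 was missing in 2 of them. The 2 cells of WT 1 had Cldn11 but neither S100a6, Aldh1a2, Slc6a13 nor Vtn. The cell of Het 3 had 2 UMIs of Col1a1 against 19 of Pdgfrb, and 4 of Lum, the lowest sum of Col1a1 and Lum among the 10.

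**Figure D3:**
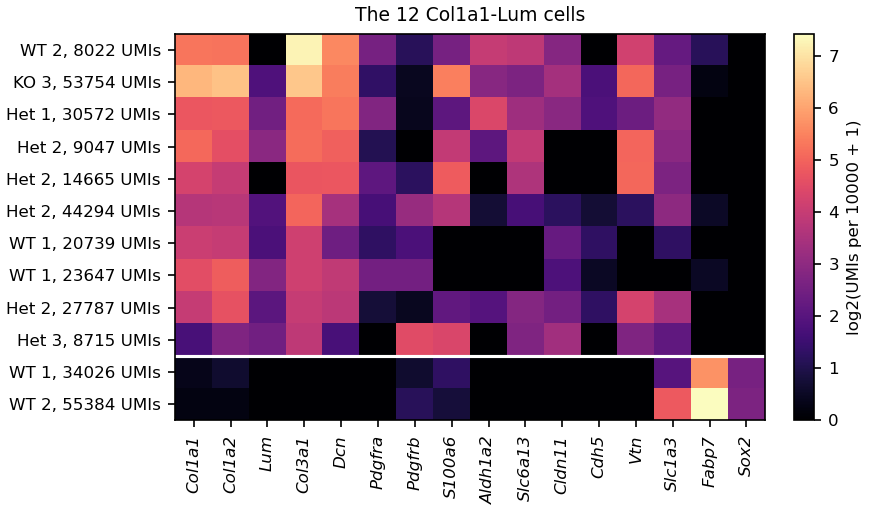
Rows are the 12 fibroblasts of the rule with their embryo and UMIs, columns are genes, and colours give log2(UMIs per 10000 + 1). The last 2 rows, below the white line, have few collagen UMIs and 176 and 948 UMIs of Fabp7.

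The question for genotype was whether loss of Gatad2b altered the number of these cells or their transcripts. All chosen cells together made up 0.25 ± 0.0245% of the kept cells in WT (n = 3), 0.201 ± 0.0554% in Het (n = 4) and 0.229 ± 0.0643% in KO (n = 3). Mural cells made up 0.234, 0.196 and 0.256% in WT 1 to 3, 0.257, 0.130, 0.178 and 0.139% in Het 1 to 4, and 0.256, 0.155 and 0.259% in KO 1 to 3. The groups overlapped, and the intervals of single embryos were wider than the differences between groups. Two-sided exact permutation tests gave p = 0.257 for Het against WT and p = 0.9 for KO against WT in mural cells, and p = 0.2 and p = 0.8 for all chosen cells. Fibroblasts numbered 3, 2 and 0 in WT 1 to 3, 1, 4, 1 and 0 in Het 1 to 4, and 0, 0 and 1 in KO 1 to 3, with exact permutation p = 0.943 and p = 0.4. Adjusted over the 6 tests, p was between 0.771 and 0.943 (exact permutation). The smallest p that the design allows is 0.0286 for Het and 0.1 for KO, so an absence of difference is not shown. In the 5864 kept cells of KO 1, which held 0 fibroblasts, 3 cells would be 0.0512%, and the two-sided exact interval reaches 0.0629%.

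**Figure D4:**
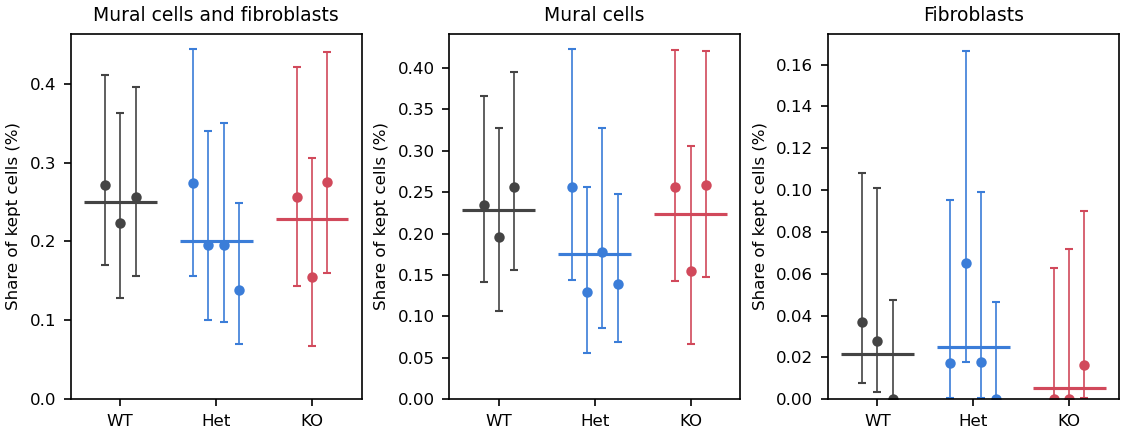
Points are embryos, with the share of kept cells (%) on the y axis and exact Clopper-Pearson 95% intervals as bars, and horizontal lines are means of WT, Het and KO. Mural cell shares run from 0.130 to 0.259%, and the genotypes overlap in each panel.

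Transcripts were tested in mural cells summed per embryo, with edgeR's quasi-likelihood test over 5127 genes and Benjamini-Hochberg adjustment. Het 2 and KO 2 had 8 mural cells each, fewer than the 10 required, and were left out of the fit, so KO rests on 2 embryos. A gene was called where the adjusted p was below 0.05 and the log2 fold change exceeded 0.25 in size. Between Het and WT 0 genes were called (0.0%), with 447 genes at an unadjusted p under 0.05 and 9 genes called by DESeq2. Between KO and WT 10 genes were called (0.195%), 7 higher (0.137%) and 3 lower (0.0585%), with 693 at an unadjusted p under 0.05 and 56 called by DESeq2. The counts moved when 1 embryo was left out. In KO, 0 genes were called without KO 1 or without KO 3, where KO is 1 embryo that is assumed to vary like the other groups, while the changes of Gatad2b (-3.61 and -3.46 on the log2 scale, adjusted p = 0.109 and 0.0828) and Fos (2.21 and 2.24) stayed near those given below. In KO, 3 genes were called without WT 1 or WT 3, 5 without WT 2 or Het 3, 32 without Het 1 and 42 without Het 4, and in Het 12 were called without WT 3.

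The targeted gene was among the 3 that fell, with Nfix and Fdps. On GRCm38 with GENCODE vM21, Gatad2b spans chr3:90293178-90363407 on the + strand, Nfix chr8:84699876-84800344 and Fdps chr3:89093588-89101959, both on the − strand. Gatad2b had 155, 144 and 144 CPM in the mural cells of WT 1 to 3, 87.9, 53.6 and 84.8 in Het 1, 3 and 4, and 11.8 and 10.4 in KO 1 and 3. Among the fitted embryos KO thus lay below Het and Het below WT, and the log2 fold change of KO against WT was -3.54 (SE 0.41, adjusted p = 0.0041). In the left-out embryos, 2 UMIs in Het 2 gave 24.1 CPM and 7 UMIs in KO 2 gave 67.7 CPM, so KO 2 was within the range of Het. With all 10 embryos the change was -2.55 (adjusted p = 0.0563). In the remaining cells Gatad2b averaged 138, 92.3 and 53.4 CPM in WT, Het and KO. Of 13 tested subunits of NuRD, the nucleosome remodelling and deacetylase complex to which Gatad2b belongs, it was the 1 called, beside 0.195% of all genes tested. Since it is the targeted gene, this count says nothing about the rest of the complex.

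Nfix, a nuclear factor I of neural and muscle development, had 341, 289 and 432 CPM in WT 1 to 3, 269, 250 and 241 in Het 1, 3 and 4, and 59.1 and 31.3 in KO 1 and 3. Among the fitted embryos the groups did not overlap. In the left-out Het 2 and KO 2 Nfix had 0 UMIs, so Het 2 lay below KO 1 and KO 3. The change in KO was -2.79 (SE 0.32, adjusted p = 0.0041), and with all 10 embryos -3.16 (adjusted p = 0.0635). Fdps, an enzyme of isoprenoid and sterol synthesis, had 93.1, 167 and 148 CPM in WT 1 to 3, 85.3, 101 and 44.6 in Het 1, 3 and 4, and 15.8 and 10.4 in KO 1 and 3, which is 4 and 2 UMIs (log2 -3.18, SE 0.51, adjusted p = 0.028). In the left-out embryos, 1 UMI of Fdps in Het 2 gave 12.03 CPM and 2 UMIs in KO 2 gave 19.4 CPM, so Het 2 was within the range of KO. For Nfix and Fdps the change in mural cells was also set against that in the remaining cells of the same 8 embryos, in a test added after the data were seen. The difference was -2.71 for Nfix (adjusted p = 0.0019) and -2.96 for Fdps (adjusted p = 0.042), 2 of the 3 genes called (0.0585%). The third was Bgn (2.43, adjusted p = 0.026), which averaged 0.779, 0.392 and 0.186 CPM in the remaining cells of WT, Het and KO. Within mural cells Bgn was not called (log2 0.59, adjusted p = 0.323). Its difference thus rests mainly on near-0 levels in the remaining cells and cannot be read as an effect in mural cells. For Gatad2b the difference between mural and remaining cells was -2.23 (adjusted p = 0.099). Between Het and WT this test called 1 gene (0.0195%).

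Transcripts of other cells also varied between embryos, while 0 of the neuronal and radial glia genes tested were called in either comparison. The 10 neuronal genes summed to 1190, 3245 and 1644 CPM in the 130 mural cells of WT 1 to 3, to 685, 313, 930 and 1022 in Het 1 to 4, and to 1012, 125.8 and 266 in KO 1 to 3. In the fit all 8 neuronal genes tested had values below 0 in both comparisons, with a median log2 change of -1.50 in Het and -1.47 in KO, and 0 called. In Het, Nfix changed by -0.47 (adjusted p = 0.581) and Fdps by -0.83 (adjusted p = 0.471). Without the 6 cells that lack pericyte genes, these Het changes were -0.94 (adjusted p = 0.307) and -0.86 (adjusted p = 0.439) in edgeR. Nfix averaged 1332 CPM in the remaining cells of WT, above its level in mural cells. The part of neuronal transcripts in the fall of Nfix and Fdps was not tested. Radial glia genes had a median change of -3.77 in KO, which became 0.24 without the 6 cells that lack pericyte genes. Without those cells Gatad2b, Nfix and Fdps were still called, and the count of genes called in KO was 58.

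Of the 7 genes that rose in KO, Klf2 had the largest change, and 3 were the immediate early genes Fos, Jun and Junb. Fos had 398, 234 and 188 CPM in WT 1 to 3, 890, 792 and 317 in Het 1, 3 and 4, and 1173 and 1138 in KO 1 and 3. Its log2 change in KO was 2.21 (SE 0.38, adjusted p = 0.041), beside 2.02 for Jun (adjusted p = 0.028), 1.89 for Junb (adjusted p = 0.041) and 2.77 for Klf2, a factor induced by flow and stress (adjusted p = 0.0080). All 8 tested genes of a list of 10 immediate early and stress genes had values above 0, with a median of 1.96 and 3 called, beside 48.1% of all genes tested above 0, a median of -0.03 and 0.137% called higher. The level of this list followed the library prefix. It summed to 1966, 1804, 1177 and 1869 CPM in WT 1, WT 2, WT 3 and Het 4 of the first prefix, and to between 4183 and 6713 CPM in the other 6 embryos. With the prefix as a covariate, which rests on Het embryos of both prefixes, 19 genes were called in KO, 1 higher and 18 lower, and the log2 change was 0.83 for Fos (adjusted p = 0.449), 1.10 for Jun (adjusted p = 0.294), 1.25 for Junb (adjusted p = 0.293) and 1.81 for Klf2 (adjusted p = 0.174). In this fit KO and prefix are separated through Het 4 against Het 1 and 3 alone. In the remaining cells Fos averaged 33.7, 79.6 and 101 CPM in WT, Het and KO.

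The other genes that rose were Rras, a small GTPase of vessel walls, with 72.4, 49.6 and 65.5 CPM in WT 1 to 3 and 165 and 193 in KO 1 and 3 (log2 1.64, adjusted p = 0.041), Actb, cytoplasmic actin (log2 0.88, adjusted p = 0.0080), and Tpt1, a growth-related protein (log2 0.81, adjusted p = 0.028). Actb had 5598, 6663 and 5507 CPM in WT 1 to 3, and 10407 and 9562 in KO 1 and 3, and with all 10 embryos it was no longer called (log2 0.73, adjusted p = 0.0797). With the prefix as a covariate Rras (log2 1.46, adjusted p = 0.237), Actb (log2 0.89, adjusted p = 0.062) and Tpt1 (log2 0.88, adjusted p = 0.077) were not called, with changes near those without it, while Gatad2b (log2 -3.32, adjusted p = 0.049), Nfix (log2 -2.87, adjusted p = 0.037) and Fdps (log2 -4.18, adjusted p = 0.037) were. Other settings also ended calls, while the sign of the change was kept in each of the 10 genes under every setting run. Fdps was not called by edgeR without doublets (log2 -2.56, adjusted p = 0.069) or with at least 3000 UMIs per cell (log2 -3.17, adjusted p = 0.059). The latter setting also left out Het 3, which kept 8 mural cells. Nor was Fdps called without WT 2, WT 3 or Het 3 (log2 -3.18 to -3.01, adjusted p between 0.0515 and 0.118). With at least 4 of the 6 markers only WT 3 kept 10 mural cells in WT, and the change of Fdps was -2.42. Without KO 1 or KO 3, where KO is 1 embryo, it was -3.50 and -2.95. Gatad2b and Nfix were not called without KO 1 (adjusted p = 0.109 and 0.0504), without KO 3 (adjusted p = 0.0828 for each) and with all 10 embryos. Of the 7 genes that rose, Fos, Jun, Junb and Rras were not called with at least 3000 UMIs per cell or without Het 3, WT 2 or WT 3. Without WT 1 none of the 7 was called. With at least 4 of the 6 markers, where WT is WT 3 alone, their log2 changes ran from 0.74 (Tpt1) to 2.30 (Fos). Without KO 1 or KO 3, where KO is 1 embryo, they ran from 0.66 (Tpt1) to 2.99 (Klf2). Tpt1 was not called without WT 2, WT 3 or Het 3, Actb without WT 3, and Rras without doublets (log2 1.44, adjusted p = 0.0714). In all 10 called genes the fitted KO and WT embryos did not overlap, as in 32.0% of all genes tested. Of these, 6 (Gatad2b, Nfix, Jun, Junb, Klf2 and Tpt1) also did not overlap between the fitted Het and WT embryos, as in 14.2% of all genes tested. The 10 genes were picked by their difference from the same WT embryos, so neither count is independent support.

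**Figure D5:**
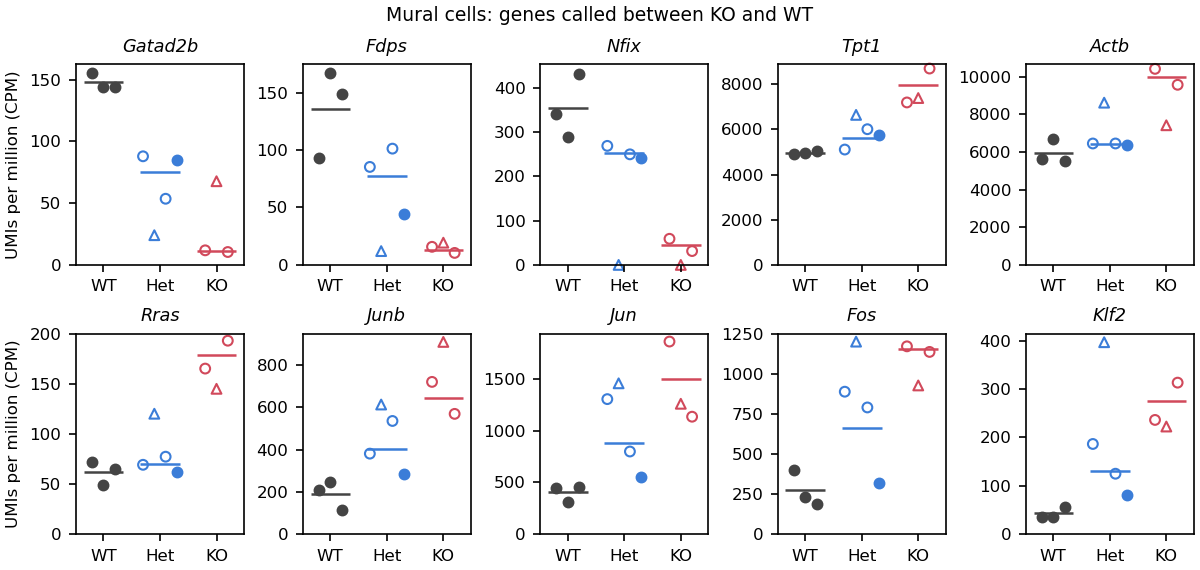
The y axes give CPM in all mural cells of the rule in each embryo for the 10 genes called between KO and WT, and lines are means of the fitted embryos. Filled points belong to the prefix of WT and Het 4 and open points to the other, and triangles are Het 2 and KO 2, which were not fitted. For Gatad2b the triangle of KO lies at 67.7 CPM, above the circles at 11.8 and 10.4.

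Genes of mural identity were not called, which does not show that they were stable, since the median SE of a log2 change over all genes tested was 0.35 in Het and 0.40 in KO. Of 14 pericyte genes 0 were called in either comparison, with median log2 changes of -0.11 in Het and 0.37 in KO, beside 0.02 and -0.03 over all genes tested. Without the 6 cells that lack pericyte genes these medians were 0.05 and 0.11, so the direction in Het turned. Of 12 tested basement membrane genes 0 were called, with medians of -0.22 and 0.21, which became -0.10 and -0.09 without those cells, so the direction in KO rests on them. All 6 tested smooth muscle genes had values below 0 in Het (median -0.49) and above 0 in KO (median 0.82), with 0 called and medians of -0.34 and 0.56 without those cells. Single cells weigh on these values, since 69 of the 70 Acta2 UMIs in the fitted KO embryos came from 1 cell of KO 1. Tagln had 0 UMIs in the fitted Het embryos against 40 in WT, an adjusted p of 0.231. Of 13 tested transcription factors 12 had values above 0 in KO (median 0.56, or 0.30 without those cells), and of 8 tested fibroblast genes 4, with 0 called in both lists. All 12 cell cycle genes had values above 0 in Het (median 1.51) with 0 called, and in the 130 cells they summed to 828, 125 and 1698 CPM in WT 1 to 3 against 1694, 144, 2637 and 3801 in Het 1 to 4. The 5 cells of Het 4 with at least 20 cell cycle UMIs and the place of all 11 of its mural cells among the marked top Scrublet scores stand beside this, and their part in it was not tested.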

How the data were processed

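Single cells of the cortex of 10 embryos were measured with 10x Genomics 3′ chemistry. Per the file headers, the authors aligned reads to mm10 and made the deposited UMI counts, per gene and barcode, with Cell Ranger 6.0.2, whereas the methods name an earlier release. The counts are raw, with 31053 genes in each of 10 libraries. Cells, shares and levels were computed with Python 3.11.15, scipy 1.17.1 and pandas 2.3.3, and doublets were scored with Scrublet in scanpy 1.11.5 but not removed.

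Members and gene lists were chosen with earlier results of these data known. Levels are means of the embryos' CPM. Shares were compared by two-sided exact permutation tests, and mural UMIs summed per embryo (at least 10 cells) with edgeR 4.0.16 in R 4.3.3 (filterByExpr, TMM, quasi-likelihood, Benjamini-Hochberg), checked on simulated data. DESeq2 1.42.0 was an alternative. No embryo had 10 fibroblasts, so fibroblasts, their contrast with mural cells and its interaction with genotype could not be fitted, and pooled UMIs are described instead. Text names Gatad2b, the genes of the rule and lists, the 10 leading genes each way between cell groups (at least 50 CPM, higher in every embryo, ranked with 20 CPM added) and all called genes where at most 10 were called in a direction. Levels of the leading genes rest on that choice. The study calls heterozygous and wild-type embryos littermates, but neither it nor the labels used here tie an embryo to a litter, so p-values measure the spread between these embryos. Same-numbered embryos did not deviate together (r from -0.383 to 0.0648 over 6 pairs). This cannot exclude pairing, since the pairs cover the fitted embryos only. The fitted KO embryos also gave r of equal size and opposite sign with each other embryo. Whether the numbers pair the embryos is thus not known. Library depth is the total given above, and intervals and limits cover counting error only. Results for some listed genes are not reported here.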

Additional observations from a re-analysis of the deposited data

Results flagged for a closer look

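Among the 30 values tested for a sample apart within the 4 Het embryos, 6 stood apart. The nominal rate is about 1 in 20 for independent, normally spread values, which values of the same 4 embryos need not be. The count of 6 is thus not read as an excess. Endothelial cells made up 0.695% of the kept cells in Het 3, against 0.274, 0.195 and 0.215% in Het 1, 2 and 4. In the mural cells of Het 2, smooth muscle genes summed to 2430 CPM, against 1276, 1106 and 1160 in Het 1, 3 and 4. In the same cells the NuRD genes summed to 1419 CPM, against 1734, 1721 and 1682, and the erythroid genes to 120.3 CPM, against 24.6, 7.32 and 13.4. Het 2 had 8 mural cells and was not part of the fit. In Het 4, genes of ion channels and cyclic GMP signalling summed to 3324 CPM, against 4467, 4318 and 4431 in Het 1 to 3, and genes of the Schwann and pigment lineage to 4.46 CPM, against 0 in the others. This is 1 UMI, below the limit of 3 UMIs that a count of 0 allows, so no difference can be read from it.

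For 4 genes edgeR's interaction test with Benjamini-Hochberg adjustment called a difference in the change with genotype between mural cells and the remaining cells. For KO against WT the difference was -2.71 on the log2 scale for Nfix (adjusted p = 0.0019), -2.96 for Fdps (adjusted p = 0.042) and 2.43 for Bgn (adjusted p = 0.026). Bgn was not called within mural cells (log2 0.59, adjusted p = 0.323) and averaged 0.779, 0.392 and 0.186 CPM in the remaining cells of WT, Het and KO. Its difference thus rests mainly on near-0 levels in the remaining cells. For Het against WT the difference was -1.39 for Gm42418 (adjusted p = 0.031), whose reads may be shared with ribosomal RNA repeats, so that its level is uncertain.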

How the results depend on the processing

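Differences in shares, in percentage points, did not pass the test under any alternative that was tested (exact permutation p of 0.1 or more, while Het 4 against WT is 1 embryo and has no test), so their direction is not settled. With 3 against 3 embryos the smallest p is 0.1, so no KO alternative could pass whatever the data. Nor could Het with 1 embryo left out or with the replicate block. For all chosen cells in Het (-0.0494), at least 4 of 6 markers gave 0.00338, counting in cells with endothelial genes 0.0274, and Het 4 against WT within 1 prefix -0.111. Leaving out doublets gave -0.0908 in Het, and allowing no endothelial gene gave -0.0114. For KO (-0.0216), 4 of 6 markers gave 0.0486, leaving out cells that lack the independent genes 0.00506, and KO against Het 1 to 3 within 1 prefix 0.00718. Leaving out doublets gave -0.00691 in KO, counting in cells with endothelial genes -0.0475, and allowing no endothelial gene -0.0308. Mural cells in Het (-0.0528) gave -0.0898 within 1 prefix, -0.000600 with 4 of 6 markers and -0.0105 with no endothelial gene allowed, and in KO (-0.00531) 0.0118 without doublets, 0.0561 with 4 of 6 markers, 0.0125 without the lacking cells and 0.0351 within 1 prefix. Fibroblasts in Het (0.00334) gave -0.0187 without doublets, -0.000843 with no endothelial gene allowed and -0.0217 within 1 prefix. Leaving out 1 embryo moved all chosen cells from -0.0737 to -0.0287 in Het and from -0.0448 to 0.0151 in KO (0.0151 without KO 2), mural cells from -0.0797 to -0.0375 in Het and from -0.0231 to 0.0287 in KO (0.0287 without KO 2, 0.00841 without WT 3), and fibroblasts from -0.0100 to 0.0117 in Het (-0.0100 without Het 2, -0.00749 without WT 3) and from -0.0271 to -0.00857 in KO. The count of genes called in Het (0) became 9 with DESeq2, 197 with no filter on low counts, 2 without the lacking cells, and 0 to 12 without 1 embryo. Stricter cells also changed the embryos fitted, since each needs 10 mural cells. Without doublets Het was Het 1 alone, and with 4 of 6 markers WT was WT 3 alone. Counts that rest on 1 embryo of a compared group are not given for these settings. In KO the count (10) became 56 with DESeq2, with adjusted p not given for 5 of the 10 genes. It was 288 with no filter (105 higher) and 58 with only the groups compared (34 higher). It was 19 with the prefix as a covariate, 6 with at least 3000 UMIs, which also left out Het 3, and 19 without doublets. Counts were 58 without the lacking cells (31 higher), 11 with all 10 embryos, and 3 to 42 without 1 WT or Het embryo. The difference between mural and remaining cells in KO (3 genes) became 14 without the lacking cells. The cause of these shifts was not tested. With a replicate block, though it is not known whether the numbers pair the embryos, edgeR called 1 gene in Het and 19 in KO (11 higher). In this fit Rras (log2 1.5, adjusted p = 0.225) and Tpt1 (log2 0.80, adjusted p = 0.0508) were not called, with changes near the 1.64 and 0.81 without the block. With the block the shares of mural cells differed by -0.0404 in Het and -0.00531 in KO. The gene fit with no endothelial gene allowed was not run, since no embryo kept 10 mural cells.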
